A study of Mus musculus with 3 samples.

Results

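The genes described here belong to the handling of ATP and adenosine around the T cell. They are the ectoenzymes Entpd1 and Nt5e, the receptors Adora2a, Adora2b and P2rx7, the transporter Slc29a1, and Ada, Adk and Dpp4. Ada deaminates adenosine, Adk phosphorylates it, and Dpp4 is a surface peptidase that in humans anchors adenosine deaminase. The 9 genes were chosen by name, with earlier results of these data known, so their counts and ranks below are a description only. Every probe set whose only gene symbol was 1 of these 9 was taken. This gave 21 probe sets for 7 genes, out of 18193 named genes and 45037 probe sets. No probe set carried the symbol Adora2a or Adora2b in the annotation used here, so both A2 adenosine receptors were not analysed here. All 7 genes had a probe set above the floor, the level under which a signal was not told from background, on at least 1 array, and 4 of them on all 3 arrays. Of all 18193 named genes, 9568 were above the floor on at least 1 array.

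Activated and dying cells release ATP, which acts as a danger signal through P2 receptors such as P2X7. CD39 (Entpd1) removes phosphates from ATP and ADP to leave AMP, and CD73 (Nt5e) converts AMP to adenosine, which dampens T cells through A2 receptors and cAMP. Adenosine is then carried into the cell by ENT1 (Slc29a1) and is either deaminated by Ada or phosphorylated by Adk. In mouse T cells the pair CD39 and CD73 is best known from regulatory T cells, and it has also been described on some Th17 cells.

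The cells were CD4+CD25- T cells from lymph node and spleen. All mice were BALB/c females aged 6 to 8 weeks and lacked both T-bet and Stat6, factors of Th1 and Th2 cells. Every culture ran for 2 days on plate-bound anti-CD3 (5 µg/ml), with 1 µg/ml of anti-CD28. The groups differed in the added cytokines: TGFβ (5 ng/ml) alone, IL-6 and IL-23 (10 ng/ml of each), or IL-6 (10 ng/ml) together with TGFβ (5 ng/ml). The culture with IL-6/IL-23 is called the IL-23 culture or array below, although it held IL-6 as well. Each group was 1 Affymetrix array, and neither the number of mice nor any pooling is given in the sources used here. Cells without added cytokine and wild-type cells were not analysed here. The study set IL-6/TGFβ against TGFβ to find genes of Th17 polarization, and against IL-6/IL-23 to leave out those that go with IL-17 only.

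With 1 array per group there is no test and no p-value, and the ratios below describe 3 arrays. Levels are quantile-normalized intensities in arbitrary units, given in the order TGFβ, IL-23, IL-6/TGFβ. The words higher and lower are kept for ratios of 2-fold or more in which the brighter value exceeded the floor of 52.9. A ratio against an array under the floor was computed against the floor and is a lower bound. The 1 available error is how far probe sets of 1 gene differ in their log2 ratios, with an SD of 0.23 for IL-6/TGFβ over TGFβ, 0.29 for IL-6/TGFβ over IL-23 and 0.30 for IL-23 over TGFβ. It leaves out differences between cultures, mice and arrays.

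Of 8 named T cell identity genes, 8 were above the floor on every array. So were the CD8 T cell genes Cd8a, at 145, 120 and 80.2, and Cd8b1, at 140, 174 and 104, although the cells were labelled CD4+. Entpd1 is also made by B cells, myeloid cells and regulatory T cells, so their markers were read too. Of 5 named B cell genes, 0, 0 and 1 were above the floor, with summed levels of 172, 135 and 198. Cd79a, the defining B cell gene, was under the floor on all 3 arrays. Of 10 myeloid and dendritic cell genes, 2, 0 and 1 were above the floor, with summed levels of 323, 209 and 245, and Lyz2 and Itgam were under it on every array. The 2 above it were Mpeg1, at 153, 21.9 and 25.7, and Csf1r, at 63.2, 40.1 and 79.4. Mpeg1 was at least 2.89-fold lower than with TGFβ both in the IL-23 culture and under IL-6/TGFβ. Csf1r was within 2-fold in every comparison and under the floor only on the IL-23 array, as Entpd1 and Nt5e were. Mpeg1 was under the floor there and on the IL-6/TGFβ array, where Entpd1 and Nt5e were not. The part of myeloid cells in the levels of Entpd1 and Nt5e was not tested. Of 5 regulatory T cell genes, 5, 4 and 5 were above the floor, with summed levels of 7222, 8489 and 7749. Fewer cells of a type and less RNA per cell cannot be told apart in these bulk samples.

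Both ectoenzyme genes were bright on the 2 arrays with TGFβ and under the floor on the IL-23 array. Entpd1 read 214 with TGFβ, 33.6 in the IL-23 culture and 371 with IL-6/TGFβ. Nt5e read 498, 43.0 and 456. The IL-23 array was thus the low one for each gene, and the array with IL-6 and TGFβ together was not low for either. With a floor of 31.0, set without the gene Mbp, both genes were above the floor on the IL-23 array too. Their log2 ratios for IL-6/TGFβ over IL-23 were then measured, at 3.47 for Entpd1 and 3.41 for Nt5e.

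**Figure D1:**
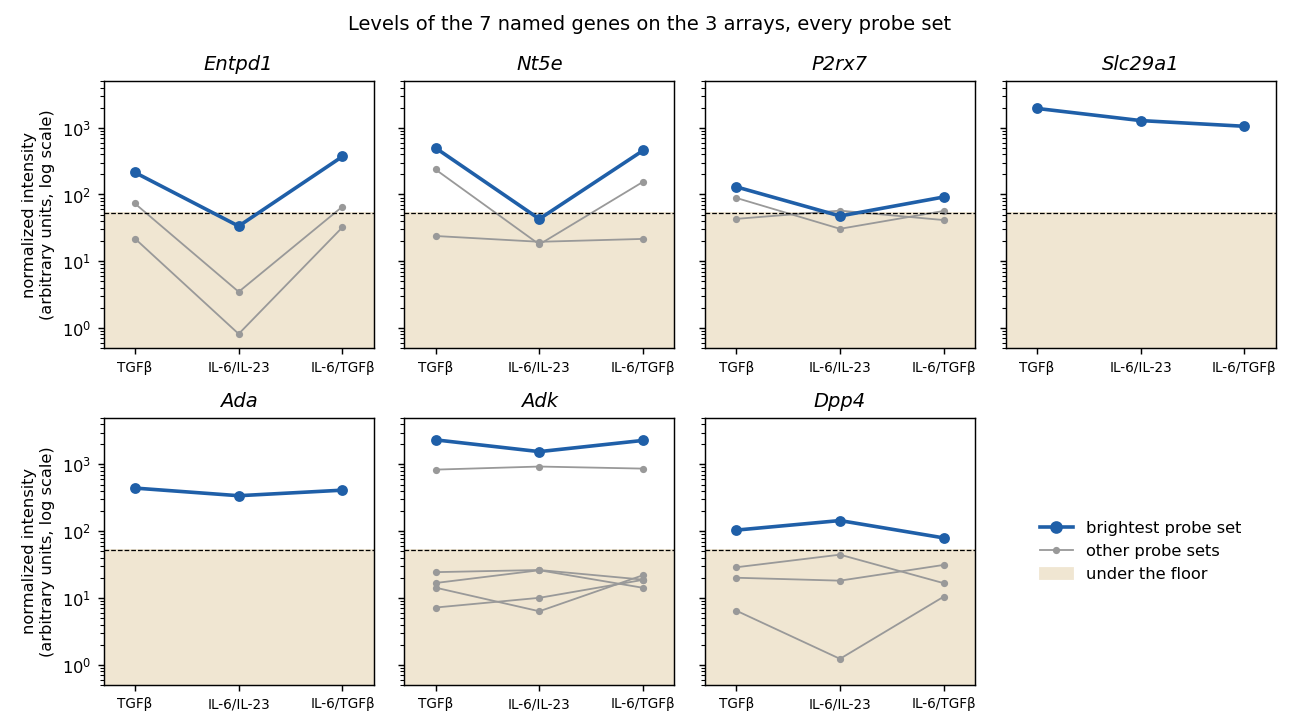
Normalized intensity (arbitrary units, log scale) of the 7 named genes on the TGFβ, IL-6/IL-23 and IL-6/TGFβ arrays, 1 array each. Each line is 1 probe set, blue for the brightest and grey for the others, and the shaded range lies under the floor of 52.9. The brightest probe sets of Entpd1, Nt5e and P2rx7 dip under the floor on the IL-6/IL-23 array, while those of the other 4 genes stay above it on all arrays.

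Against the IL-23 culture, IL-6/TGFβ gave at least 7.02-fold more Entpd1 and at least 8.63-fold more Nt5e. These were the 2 of 7 genes counted as higher in this comparison, and 0 were lower. Over all genes above the floor on an array of the pair, 3.91% were higher and 3.58% lower by the same rule (7.48% in all), with a median log2 ratio of -0.04 against 0.56 over the 7 genes. Ratios or bounds at least as large were found for 33 of 9448 genes in the case of Entpd1 and 24 in that of Nt5e, each gene itself included. The probe-set SD came from probe sets above the floor on both arrays of a pair, so it does not describe these bounds. The groups differ in both TGFβ and IL-23, so neither difference can be assigned to 1 cytokine. The balance of calls over all genes moved with the scaling, from 52.2% higher to 37.5% after median scaling and 89.1% without scaling, with median log2 ratios of -0.20 and 0.42.

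The same array was low when set against TGFβ alone. Entpd1 was at least 4.04-fold lower and Nt5e at least 9.42-fold lower in the IL-23 culture. With P2rx7, described below, 3 of the 7 genes were lower and 0 higher, where 3.51% of all genes were lower and 3.66% higher (7.16% in all). The median log2 ratio was -0.61 over the 7 genes and 0.06 over all genes, which became 0.12 after median scaling and -0.83 without scaling. Calls over all genes were 51.0% higher, 53.6% after median scaling and 2.40% without scaling. This comparison and the previous one share the IL-23 array, so they are not independent readings of its low level.

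Adding IL-6 to TGFβ left both genes within 2-fold of TGFβ alone. Entpd1 was 1.74-fold brighter with IL-6/TGFβ, a log2 ratio of 0.80 and 3.50 times the probe-set SD, and Nt5e stood at -0.13, less than that SD. A second Nt5e probe set, above the floor on both arrays, gave -0.61 in this comparison. In this comparison 0 of 7 genes were higher and 0 lower, where 4.95% of all genes passed in either direction (2.76% higher, 2.19% lower). The median was -0.13 over the 7 genes and 0.02 over all genes (-0.07 after median scaling, -0.42 without scaling). Calls over all genes were 55.8% higher, against 44.6% after median scaling and 15.4% without scaling.

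Further probe sets bore on how firmly each ectoenzyme can be read. A second Nt5e probe set read 237, 17.9 and 155, at least 2.93-fold higher under IL-6/TGFβ than in the IL-23 culture and at least 4.48-fold lower in the IL-23 culture than with TGFβ. The other one stayed under the floor on all 3 arrays, between 19.6 and 23.9. For Entpd1 a second probe set read 73.3, 3.48 and 65.8, which put the IL-23 array lowest again. Because it was only just above the floor where it was bright, its bounds were small, at 1.39-fold below TGFβ and 1.25-fold below IL-6/TGFβ. For IL-6/TGFβ over TGFβ it gave a log2 ratio of -0.15 where the brightest Entpd1 probe set gave 0.80, so the probe sets disagreed on that difference. The last Entpd1 probe set was under the floor on every array.

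Median deposited intensity over all probe sets was 35.8, 17.8 and 28.1, and the IL-23 array was the dimmest. Deposited values were 298, 22.7 and 375 for Entpd1 and 686, 28.7 and 458 for Nt5e, each lowest on that array. After median scaling in place of quantile normalization, the bounds of IL-6/TGFβ over IL-23 were 2.73 for Entpd1 and 3.02 for Nt5e on the log2 scale, against 2.81 and 3.11 after quantile normalization. The part of array brightness in these levels was not tested. Foxp3, which defines regulatory T cells, was low on the same array, at 498, 22.5 and 232, and its part in the levels of Entpd1 and Nt5e was not tested. The other 4 regulatory T cell markers were above the floor on the IL-23 array. Il2ra read 2390, 2803 and 3297, Ikzf2 309, 235 and 156, Ctla4 1153, 2578 and 2967, and Tnfrsf18 2872, 2850 and 1096. Every culture was stimulated through CD3 and CD28, and what these 4 levels say of regulatory T cells was not tested.

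**Figure D2:**
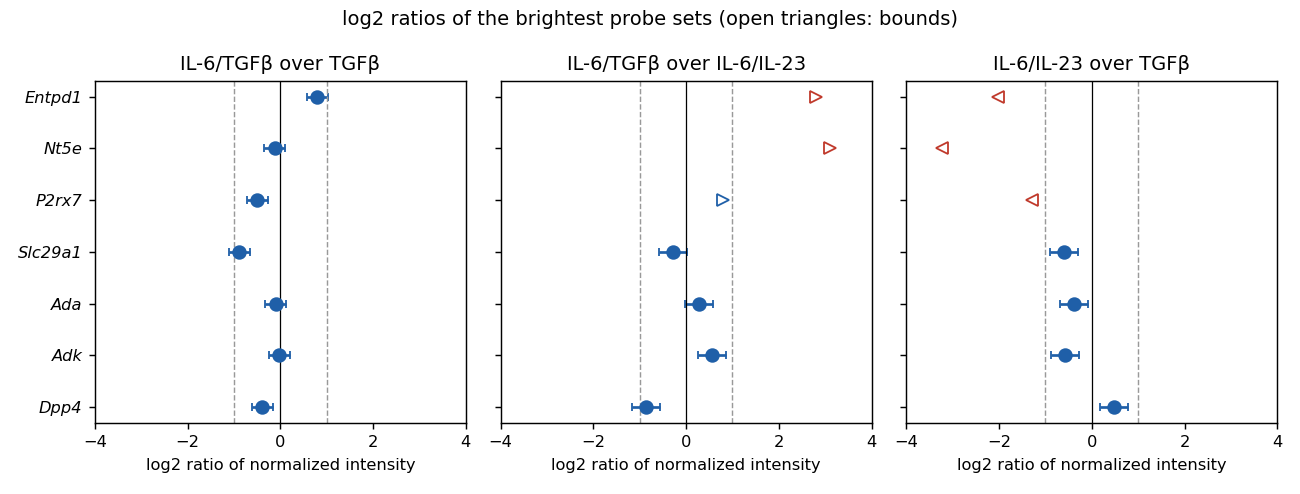
log2 ratios of normalized intensity for the brightest probe set of each of the 7 genes, 1 panel for each pair of arrays. Filled points were measured on both arrays and have bars of 1 probe-set SD, open triangles are lower bounds, red marks at least 2-fold and dashed lines stand at 2-fold. Red symbols are seen for Entpd1 and Nt5e against IL-6/IL-23, for both and P2rx7 in the last panel, and for no gene in the first.

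For Entpd1 and Nt5e, which passed 2-fold, the 300 bases around their start sites (250 before, 50 after) are shown, from RefSeq on build GRCm38.p6. The Nt5e window is chr9:88327359-88327658 and the Entpd1 windows, for 2 annotated starts, are chr19:40612116-40612415 and chr19:40659520-40659819, all on the plus strand. Capitals mark GCGTG, the core bound by the aryl hydrocarbon receptor, and CAGAC, the SMAD box, on either strand (reverse complements CACGC and GTCTG). No marked match overlaps another, and matches to TGACG, given below, are not marked.
Nt5e: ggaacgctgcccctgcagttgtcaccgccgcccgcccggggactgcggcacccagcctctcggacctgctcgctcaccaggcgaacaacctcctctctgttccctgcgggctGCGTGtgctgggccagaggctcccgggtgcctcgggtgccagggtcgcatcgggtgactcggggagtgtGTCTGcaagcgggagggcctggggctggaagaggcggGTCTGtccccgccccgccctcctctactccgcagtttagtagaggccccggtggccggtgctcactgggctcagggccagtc
Entpd1, upstream start: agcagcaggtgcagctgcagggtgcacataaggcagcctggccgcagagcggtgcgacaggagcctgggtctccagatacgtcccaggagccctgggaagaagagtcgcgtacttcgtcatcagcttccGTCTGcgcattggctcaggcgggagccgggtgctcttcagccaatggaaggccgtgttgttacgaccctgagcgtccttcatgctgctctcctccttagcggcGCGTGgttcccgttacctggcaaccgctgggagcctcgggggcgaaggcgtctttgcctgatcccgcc
Entpd1, downstream start: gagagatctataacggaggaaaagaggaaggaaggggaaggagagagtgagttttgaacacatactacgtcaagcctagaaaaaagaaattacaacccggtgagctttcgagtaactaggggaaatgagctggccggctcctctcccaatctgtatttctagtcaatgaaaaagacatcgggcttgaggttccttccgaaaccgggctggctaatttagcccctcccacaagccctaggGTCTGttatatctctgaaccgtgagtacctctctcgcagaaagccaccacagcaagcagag

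GCGTG was found once in the Nt5e window, at -138 from the start, and once in the upstream Entpd1 window, at -18. It was not in the downstream Entpd1 window. Of all 32851 promoter windows of this length, 32.4% held GCGTG. The SMAD box was found at 2 places for Nt5e and at 1 in each Entpd1 window, and 49.6% of all windows held it. AAATC, a core of Gfi1 sites, was in none of the 3 windows (35.9% of all windows). TTCNNNGAA, a STAT motif, was also in none (8.30% of all windows). TGACG, part of a cAMP response element, was in both Entpd1 windows and not in that of Nt5e (20.8% of all windows). All motifs were searched on both strands, and matches to such short letters are a description of the sequence only.

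Genes whose 3 levels lay closest to those of Nt5e were found by the distance between log2 values around each gene's own mean, over 3 arrays and 8946 other genes. The 5 nearest were Kctd14, at 625, 68.8 and 779, the chemokine gene Ccl20, at 343, 45.4 (under the floor) and 416, Tgfbr1, a TGFβ receptor chain, at 3297, 235 and 2387, Rragd, a GTPase of amino acid sensing, at 631, 63.6 and 374, and Nudt6, at 427, 75.6 and 570. Their distances were between 0.34 and 0.54 log2 units. Entpd1 was the 18th nearest, at 0.90, and P2rx7 was the 190th. With 3 arrays such a likeness says no more than that these genes too were lowest in the IL-23 culture.

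P2rx7, the ATP-gated ion channel through which high extracellular ATP can kill T cells, was another gene lowest in the IL-23 culture. It read 130, 47.6 and 91.7, and was at least 2.46-fold lower in the IL-23 culture than with TGFβ. Against IL-6/TGFβ the bound was 1.73-fold, short of the rule, and IL-6/TGFβ over TGFβ gave -0.50. The call rests on 1 probe set. A second one read 88.9, 30.6 and 56.6, in the same order but only at least 1.68-fold lower, and the last read 43.1, 57.3 and 41.4, with the IL-23 array brightest. The promoter table held 2 annotated P2rx7 starts, and neither window held GCGTG. The SMAD box was at 1 place in the first window and at 2 in the other, and the first also held AAATC, at 41 from the start.

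Of the other P2 receptors, 14 were named and only P2rx4 and P2ry10 were above the floor on an array, where 9568 of all 18193 named genes were. P2ry10, a lysophospholipid receptor despite its name, read 1170, 419 and 1090. Its log2 ratios were 1.38 for IL-6/TGFβ over IL-23 and -1.48 for IL-23 over TGFβ, both past 2-fold, and -0.10 for IL-6/TGFβ over TGFβ. Of all genes, 7.48% and 7.16% passed in the comparisons where P2ry10 did. P2rx4, an ATP-gated channel, read 105, 133 and 123 and passed in no comparison. Adora3, the 1 named gene of the other adenosine receptors, was under the floor on all 3 arrays.

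Transport and breakdown of adenosine differed less between the arrays. Slc29a1 read 1945, 1279 and 1050 on its 1 probe set, highest with TGFβ. Its log2 ratio was -0.89 for IL-6/TGFβ over TGFβ, 3.91 times the probe-set SD and short of 2-fold, and -0.61 for IL-23 over TGFβ. The arrays with IL-6 differed by -0.28 for IL-6/TGFβ over IL-23, less than the probe-set SD. Without any scaling of the arrays, Slc29a1 passed 2-fold against TGFβ on both (-1.34 and -1.50), and IL-6/TGFβ over IL-23 turned to 0.16.

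Ada, which turns adenosine into inosine, read 442, 340 and 411. Its largest log2 ratio was -0.38, for IL-23 over TGFβ, 1.26 times the probe-set SD. The remaining ratios, -0.10 and 0.28, were within that SD. Ada had 1 probe set.

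Adk, which returns adenosine to AMP inside the cell, had 6 probe sets, of which 2 were above the floor. The brightest read 2331, 1554 and 2287 and the next 835, 929 and 865. The 2 went opposite ways for IL-23 over TGFβ, at -0.59 and 0.15, and for IL-6/TGFβ over IL-23, at 0.56 and -0.10. Both were near 0 for IL-6/TGFβ over TGFβ (-0.03 and 0.05). The IL-23 array was low on 1 of them and high on the other, so no direction was read for Adk.

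Dpp4, the surface peptidase CD26, which in humans anchors adenosine deaminase to the cell, read 104, 144 and 79.2, highest in the IL-23 culture. This order depends on the scaling, since the deposited values were 146, 99.6 and 82.5, highest with TGFβ. IL-6/TGFβ over IL-23 gave -0.86, 2.94 times the probe-set SD and short of 2-fold. The remaining log2 ratios were -0.39 for IL-6/TGFβ over TGFβ and 0.48 for IL-23 over TGFβ, which turned to -0.56 without scaling. Its 3 further probe sets were under the floor on all arrays.

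**Figure D3:**
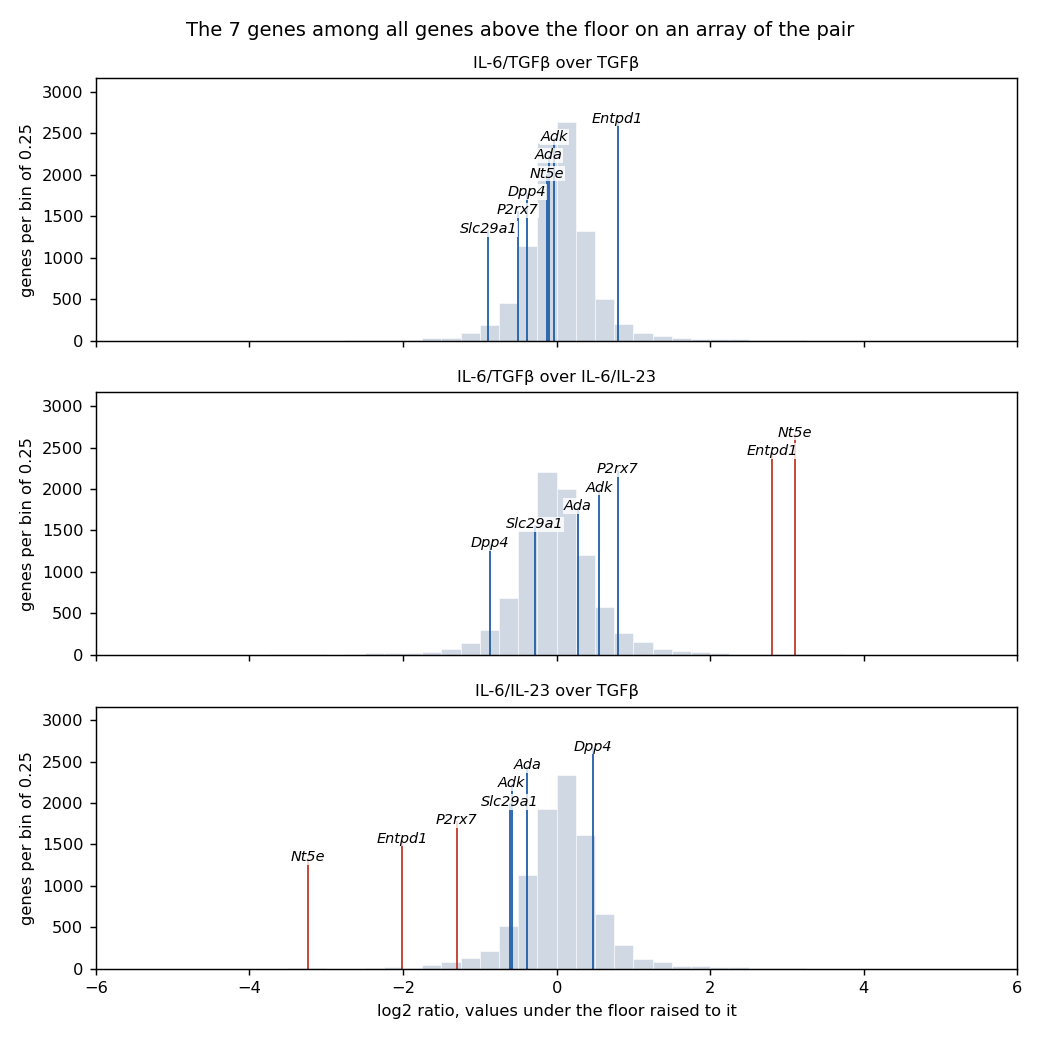
Histogram of log2 ratios of all genes above the floor on an array of the pair (grey bars, genes per bin of 0.25), with the 7 genes as vertical lines, red where at least 2-fold. Values under the floor were raised to it, so lines of Entpd1, Nt5e and P2rx7 in the lower 2 panels are bounds. In the top panel all 7 lie within 2-fold, and in the others Entpd1 and Nt5e lie in the sparse tail.

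The other enzymes and receptors of the pathway were taken from lists. Of 12 named ectoenzymes besides Entpd1 and Nt5e, 6 were above the floor. Acpp, an acid phosphatase that can also make adenosine from AMP, was under the floor with TGFβ and in the IL-23 culture, at 39.3 and 48.1, and read 245 with IL-6/TGFβ. It was at least 4.63-fold higher there than on either other array, and 2 further probe sets were brightest on that array too, at 159 and 131. Entpd5, a nucleotidase of the endoplasmic reticulum, read 242, 98.0 and 250 (1.35 for IL-6/TGFβ over IL-23 and -1.31 for IL-23 over TGFβ). Its 4 further probe sets gave between 0.07 and 1.28 for IL-6/TGFβ over IL-23, and only 1 of them passed 2-fold. Alpl, the tissue-nonspecific alkaline phosphatase, read 96.7, 141 and 52.9 and was lower with IL-6/TGFβ than in the IL-23 culture (-1.42), at a level that touches the floor. Entpd6, Entpd7 and Enpp4 passed in no comparison. In all, 1 of 6 was higher and 0 lower for IL-6/TGFβ over TGFβ, 2 higher and 1 lower for IL-6/TGFβ over IL-23, and 0 higher and 1 lower of 5 for IL-23 over TGFβ. By the same rule 4.95%, 7.48% and 7.16% of all genes passed in these comparisons, and with so few genes a list's share is a description only.

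Genes of ATP release and nucleoside transport gave 1 call among 6 above the floor. It was for IL-6/TGFβ over IL-23, where 7.48% of all genes passed. Slc17a9, the vesicular nucleotide transporter, read 214, 120 and 247 and was higher with IL-6/TGFβ than in the IL-23 culture (1.05, with 0.87 on its other probe set). The call was lost after median scaling, with 16 added in place of a floor and with the mean of all probe sets. It was also lost with the floor at the 99th percentile and without probe sets whose ID is of the _a_ kind. Panx1, the pannexin channel that releases ATP from activated T cells, read 499, 616 and 646, within 2-fold throughout. Slc29a2, Slc29a3 and Slc29a4, relatives of Slc29a1, passed in no comparison.

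Above the floor were 17 genes of purine turnover inside the cell. For IL-6/TGFβ over TGFβ 1 was higher and 0 lower. For IL-6/TGFβ over IL-23 2 were higher and 1 lower, and for IL-23 over TGFβ 1 was higher and 0 lower. By the same rule 4.95%, 7.48% and 7.16% of all genes passed, and these small counts are a description only. Ak1, a cytosolic adenylate kinase, was under the floor with TGFβ and read 58.3 and 186 on the others, at least 3.52-fold higher under IL-6/TGFβ than under TGFβ and at 1.68 over IL-23. Ak4, a mitochondrial adenylate kinase, read 211, 916 and 308, highest in the IL-23 culture (2.12 over TGFβ, and -1.57 for IL-6/TGFβ over IL-23). Its 2 further probe sets were also brightest there. Nt5c3b, a cytosolic nucleotidase, stood at 1.04 for IL-6/TGFβ over IL-23, and a further probe set gave 0.13. The median log2 ratios of this list were 0.10, -0.18 and 0.16 in the same order of comparisons, against 0.02, -0.04 and 0.06 over all genes.

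Adenosine acts on T cells largely through cAMP, and 18 genes of cAMP signalling were above the floor. Crem, a cAMP-induced transcription factor gene, read 567, 2699 and 1098, highest in the IL-23 culture (2.25 over TGFβ, and -1.30 for IL-6/TGFβ over IL-23), with 2.21 and -1.35 on a further probe set. The phosphodiesterase genes, which end cAMP signals, did not move together. Pde4b read 189, 442 and 251 and was higher in the IL-23 culture than with TGFβ (1.23), while further probe sets gave 0.79 and 0.48. Pde4d was higher with IL-6/TGFβ than in the IL-23 culture (1.17). Pde7a was lower under IL-6/TGFβ than under TGFβ (-1.02), and its 6 further probe sets lay between -1.55 and -0.44. Akap13, a scaffold of protein kinase A, read 1083, 589 and 1882 and was higher with IL-6/TGFβ than in the IL-23 culture (1.67). Its further probe sets above the floor gave bounds between 0.65 and 0.95 there, short of 2-fold. In all, 0 were higher and 1 lower for IL-6/TGFβ over TGFβ, 2 higher and 1 lower for IL-6/TGFβ over IL-23, and 2 higher and 0 lower for IL-23 over TGFβ, with medians of 0.07, 0.15 and -0.14. Among all genes 4.95%, 7.48% and 7.16% passed in the same order of comparisons, and these small counts are a description only. Without scaling, 1 was higher and 8 lower for IL-23 over TGFβ, where 35.3% of all genes passed. With the mean of all probe sets, 0 passed for IL-6/TGFβ over IL-23.

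**Figure D4:**
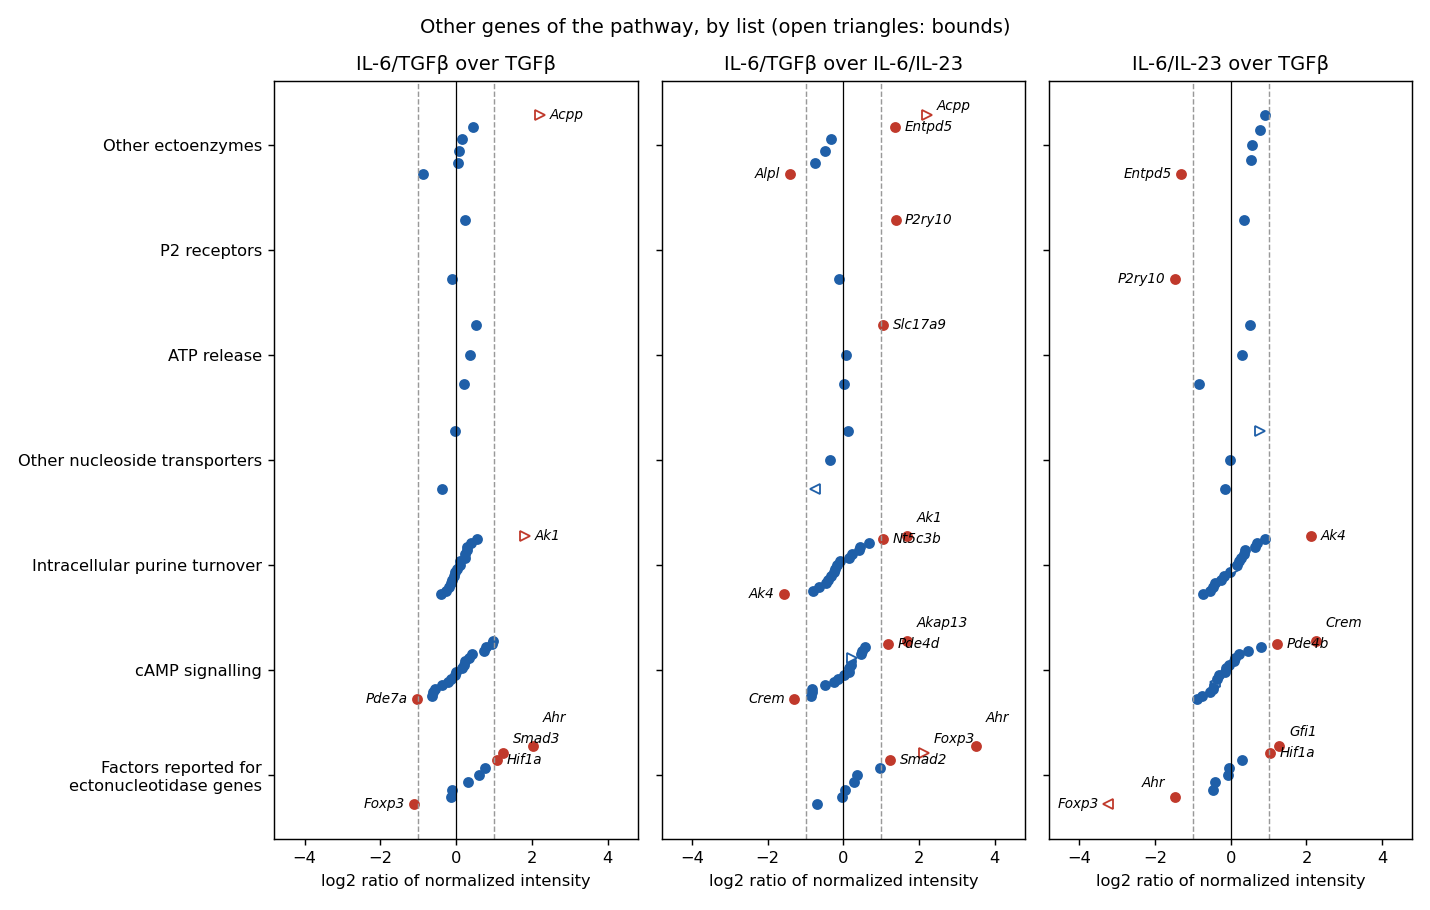
log2 ratios of the other genes of the pathway by list, 1 panel for each pair of arrays. Each symbol is a gene above the floor on an array of the pair, open triangles are bounds, and red symbols with names passed 2-fold. Most genes lie inside the dashed 2-fold lines, and Acpp stands at a bound of 2.21 in the left and middle panels.

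Factors that reports tie to Entpd1 and Nt5e expression in T cells were read last, 9 of them named and above the floor. Gfi1, described as a repressor of both ectoenzyme genes, read 312, 763 and 474 and was brightest in the IL-23 culture (1.29 for IL-23 over TGFβ and -0.69 for IL-6/TGFβ over IL-23). Ahr read 456, 163 and 1861, lowest in the IL-23 culture and 4.08-fold higher under IL-6/TGFβ than under TGFβ. Smad3 was higher under IL-6/TGFβ than under TGFβ (1.24) and Smad2 higher than in the IL-23 culture (1.23). Hif1a was higher on both arrays with IL-6 (1.08 with TGFβ and 1.04 with IL-23, over TGFβ). Foxp3 was lower than with TGFβ on both (-1.10, and at least 9.42-fold lower in the IL-23 culture) and at least 4.39-fold higher under IL-6/TGFβ than in the IL-23 culture. In all, 3 of 9 were higher and 1 lower for IL-6/TGFβ over TGFβ, where 2.76% and 2.19% of all genes were. For IL-6/TGFβ over IL-23, 3 were higher and 0 lower, against 3.91% and 3.58% of all genes, and for IL-23 over TGFβ 2 and 2, against 3.66% and 3.51%. Whether any of these factors had a part in the ectoenzyme levels was not tested.

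The 5 ratios past 2-fold among the genes described here all fell short of it with the floor at the 99th percentile. A lower floor can only enlarge a bound, and a 1.5-fold rule cannot undo a call, so these alternatives do not bear on the calls. With the mean of all probe sets, Entpd1 and P2rx7 no longer passed, at 0.81 for Entpd1 over IL-23, -0.40 for Entpd1 in the IL-23 culture over TGFβ and -0.59 for P2rx7. With P2rx7 represented by a probe set whose ID is not of the _a_ kind, its value was -0.75.

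**Figure D5:**
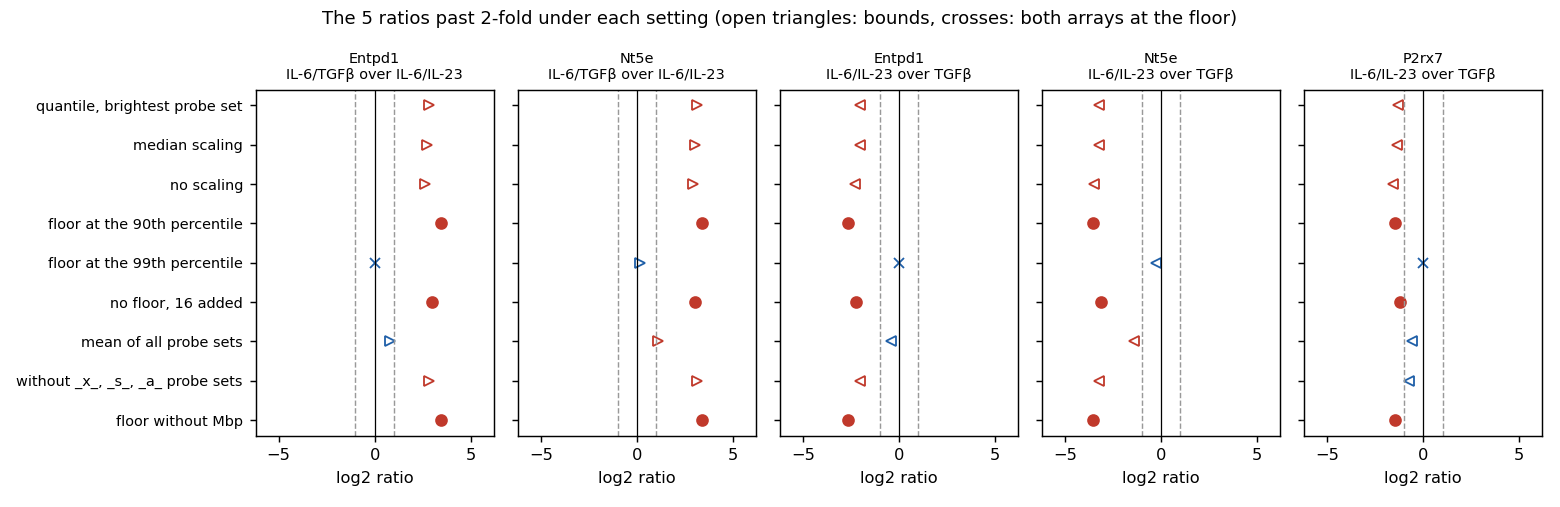
The 5 ratios past 2-fold (log2 scale) under quantile normalization and 8 alternative settings, 1 row for each setting. Red symbols passed 2-fold, open triangles are bounds and crosses are settings with both arrays at the floor. Scaling hardly moves the symbols, while the floor at the 99th percentile and the mean of all probe sets bring most of them inside 2-fold.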

How the data were processed

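Intensities of 45101 probe sets on 3 Affymetrix arrays were used as the authors deposited them. They are linear intensities, and how probes were summarized and scaled is not given in the sources used here. After 64 control probe sets were left out, log2 intensities were quantile normalized in Python 3.11.15 with numpy 2.4.6 and pandas 2.3.3, which removes real differences in total mRNA between conditions. Gene names came from the platform annotation: 34945 probe sets had 1 gene symbol, 932 had several and were not used, and 9160 were unnamed here. Entrez identifiers of 34741 matched RefSeq, and 0 symbols were renamed. The probe set with the highest mean log2 value over the 3 arrays stood for a gene.

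Probe sets of 48 genes made in other tissues (82 in all) set the floor, at their 95th percentile (52.9). The list held Mbp, which was bright here in some of its 8 probe sets, and without them the floor was 31.0, an alternative added after seeing the data. Entpd1, Nt5e and P2rx7 were above that lower floor on the IL-23 array. Values under the floor have no order. The probe-set SD came from the median absolute deviation between the 2 brightest probe sets of a gene, over 3841, 3813 and 3823 genes. Only probe sets above the floor on both arrays of the pair entered it. With 1 array per condition no test was run, and the number of arrays limits the precision. The size rule was tested on simulated data with known changes. From each list, all genes past 2-fold were named, up to 4 per comparison. The members and lists were chosen with earlier results of these data known.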

Additional observations from a re-analysis of the deposited data

How the results depend on the processing

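No paired analysis was possible because each condition was 1 array, and no replicate could be left out. Counts of genes past 2-fold among the 7 were 0 for IL-6/TGFβ over TGFβ, 2 for IL-6/TGFβ over IL-23 and 3 for IL-23 over TGFβ. They were the same after median scaling, with the floor at the 90th percentile, with 16 added in place of a floor, and with the floor without Mbp. Without probe sets of the _x_, _s_ and _a_ kinds they were 0, 2 and 2 of 6 genes, since Slc29a1 then had no probe set. Without scaling they were 1, 2 and 6, when 8.49%, 13.2% and 35.3% of all genes passed, and Slc29a1, Ada and Adk were also lower in the IL-23 culture than with TGFβ; the median log2 ratio of all genes was then -0.83 in that comparison. With the floor at the 99th percentile, an intensity of 412, they were 0, 0 and 0, because Entpd1 and P2rx7 then lay under the floor on every array and the bounds of Nt5e shrank to 0.15 and -0.27 on the log2 scale. The mean of all probe sets gave 0, 1 and 1, and probe sets under the floor enter that mean. A 1.5-fold rule gave 2, 4 and 5, where 14.9%, 21.3% and 19.5% of all genes passed. No called ratio of the 7 genes changed sign under any of these settings; for Entpd1 and P2rx7, the 99th percentile left no ratio.

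Scaling moved the balance of calls over all genes. For IL-6/TGFβ over IL-23, the higher share of calls was 52.2% with quantile normalization, 37.5% with median scaling and 89.1% without scaling. For IL-6/TGFβ over TGFβ the shares were 55.8%, 44.6% and 15.4%, and for IL-23 over TGFβ 51.0%, 53.6% and 2.40%. Over all genes, higher and lower calls for IL-6/TGFβ over TGFβ, IL-6/TGFβ over IL-23 and IL-23 over TGFβ numbered 256 and 203, 369 and 338, and 342 and 328. They numbered 123 and 678, 1050 and 129, and 79 and 3214 without scaling, and 81 and 45, 115 and 96, and 102 and 86 with the floor at the 99th percentile. With 16 added they numbered 453 and 365, 646 and 653, and 652 and 545, and with the 1.5-fold rule 753 and 631, 978 and 1030, and 988 and 833. Counts of called genes in the pathway lists, both directions together, also depended on the setting. Of these counts under the alternatives, 167 were equal to or within 1.5-fold of the main count, and 49 moved further.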
